A study of Mus musculus with 8 samples.

Results

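A set of 9 genes of MHC class II antigen presentation was followed in hepatic macrophages of mice cultured with or without cholesterol crystals (CC). The genes were picked by symbol from the 55401 rows of the deposited count table, and all 9 were found there and passed the filter on low counts. They are the class II chain genes *H2-Aa*, *H2-Ab1* and *H2-Eb1*, the peptide-loading genes *H2-DMa*, *H2-DMb1* and *Cd74*, the transactivator gene *Ciita*, and the costimulator genes *Cd80* and *Cd86*. The 8 RNA-seq libraries form 4 groups of 2. Normal livers came from wild-type (WT) mice on a standard diet, and steatotic livers from MC4R-KO mice, in which the melanocortin 4 receptor gene is disrupted, kept for 6 to 10 weeks on a Western diet. All animals were on the C57BL/6J background. Every normal library is WT on the standard diet and every steatotic library MC4R-KO on the Western diet, so genotype and diet cannot be told apart. An age was given for the longer feeding model of the study, which used male mice, but not for the animals of these cultures. Macrophages were isolated with magnetic beads against F4/80, plated on collagen and given vehicle (Veh) or 500 μg/ml CC for 24 h. The groups are called normal Veh, normal CC, steatotic Veh and steatotic CC. Nothing says whether libraries of a group came from separate animals, so p-values measure the spread between these libraries, which may be technical.

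Class II molecules are pairs of an α and a β chain that show peptides from engulfed material to CD4+ T cells. The invariant chain, the product of *Cd74*, holds new class II molecules until they reach late endosomes and lysosomes. There it is cut down to a short peptide called CLIP, which H2-DM exchanges for other peptides. CIITA, the product of *Ciita*, binds no DNA itself but joins the factors bound at the X and Y boxes of class II promoters, and its level largely sets the transcription of these genes. CD80 and CD86 bind CD28 and CTLA-4 on T cells. In the liver, Kupffer cells, dendritic cells, B cells and sinusoidal endothelial cells can all carry class II.

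The libraries held 58668655 to 74529462 counts. *Mc4r* had 0 counts in each normal library, and 28, 22, 53 and 72 counts in the steatotic libraries. The reads in the steatotic libraries go against the KO label, unless they can still come from the disrupted allele. About 4 counts were inferred to stand for 1 sequenced fragment, so these are few fragments. The 0 counts in the normal libraries do not tell whether the gene was intact there. The labels are taken as given for directions between the livers. The summed level of 6 macrophage markers was 14799 to 15222 CPM (counts scaled to the library total, TMM-scaled throughout) in normal Veh, 12145 to 12316 in normal CC, 10988 to 11151 in steatotic Veh and 9668 to 10468 in steatotic CC. The lower sum in steatotic Veh came from *Lyz2* and *Cd68*, which fell, whereas *Adgre1* (the gene of F4/80), *Fcgr1* and *Mertk* rose against normal Veh. Markers of dendritic and B cells were at far lower levels in every library. The 8 dendritic cell markers summed to between 5.54 and 10.8 CPM, and the 7 B cell markers to between 4.88 and 9.25 CPM. Replicates of a group correlated across the tested genes with Pearson's r of 0.983 to 0.985, and no library stood apart.

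The classical class II chains were at their highest in the steatotic Veh libraries. *H2-Aa* (ENSMUSG00000036594.15), the α chain gene of the I-A molecule, stood at 136 and 134.5 CPM in normal Veh, 111.3 and 115.2 in normal CC, 292.5 and 314.2 in steatotic Veh, and 187.6 and 209.6 in steatotic CC. No library of one group overlapped another group for this gene, and the order ran from normal CC over normal Veh and steatotic CC to steatotic Veh. *H2-Ab1* (ENSMUSG00000073421.6), its β chain partner, was measured at 109 and 88.08 CPM in normal Veh, 91.02 and 102.3 in normal CC, 263.8 and 228.5 in steatotic Veh, and 144.9 and 153.8 in steatotic CC. Its normal libraries overlapped across treatments, and the steatotic Veh libraries stood above all others. *H2-Eb1* (ENSMUSG00000060586.11), the β chain gene of I-E, gave 22.95 and 16.87 CPM in normal Veh, 13.47 and 19.85 in normal CC, 50.99 and 37.5 in steatotic Veh, and 22.45 and 17.88 in steatotic CC. Only steatotic Veh was apart from the other groups here, and the spread within groups was wide. C57BL/6 mice lack a working I-E α chain gene, so this transcript is not known to give a surface molecule in this strain.

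These genes lie together on chromosome 17 of GRCm38 (mm10). *H2-Aa* spans 34282744 to 34287823 on the minus strand. *H2-Ab1* spans 34257689 to 34269419 and *H2-Eb1* 34305867 to 34316674, both on the plus strand. The loading genes *H2-DMa* (34119541 to 34139101) and *H2-DMb1* (34153072 to 34160230) are nearby, also on the plus strand. *Ciita* (10480059 to 10528418, plus strand), *Cd80* (38455561 to 38496335, plus strand) and *Cd86* (36603869 to 36666081, minus strand) lie on chromosome 16, and *Cd74* lies on another chromosome. All 9 are protein coding.

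Because class II genes are read through shared promoter elements, the promoters of 2 class II chains are shown, from 130 to 11 bases before the RefSeq transcription start (GRCm38.p6, 5′ to 3′ on the gene's strand). Capitals mark GATTGG, the letters of the Y box bound by NF-Y, on either strand, and ACTGATG.
*H2-Aa*, chr17:34287834-34287953, minus strand: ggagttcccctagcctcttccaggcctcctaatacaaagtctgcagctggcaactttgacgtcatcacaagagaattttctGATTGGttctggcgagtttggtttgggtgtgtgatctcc
*H2-Eb1*, chr17:34305737-34305856, plus strand: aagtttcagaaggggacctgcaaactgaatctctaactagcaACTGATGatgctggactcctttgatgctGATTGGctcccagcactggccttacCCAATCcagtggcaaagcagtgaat

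Windows of 250 bases before to 50 bases after the start were matched for 5 of the 9 members (*H2-Aa*, *H2-Eb1*, *H2-DMa*, *H2-DMb1* and *Cd80*). GATTGG began 49 bases before the start in *H2-Aa*, 60 in *H2-Eb1*, with a further copy on the other strand at 35, and 62 in *H2-DMb1*, whose window lies partly in a 5′ UTR by GENCODE and is not printed. It lay 199 bases before the start in a window of *H2-DMa* and was not in the window of *Cd80*. On either strand it was in 16.1% of all 32851 promoter windows. A pattern set beforehand for the X box, ACANNTG followed by GATTGG with 25 to 33 bases between their starts, matched no member and 0.180% of all windows. It has an A where ACTGATG has a T, so it cannot match those letters. ACTGATG followed by GATTGG at that spacing was in *H2-Eb1* and *H2-DMb1* and in 0.0183% of windows (6 in all, the others being the class II gene *H2-Eb2* and *BC051142*, *Scaper* and *Gmnc*, which are not class II genes). These letters were chosen after the sequences were read, so the match is a description of these windows.

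The peptide-loading genes were also highest in steatotic Veh. *H2-DMa* (ENSMUSG00000037649.10), the α chain gene of H2-DM, was at 24.97 and 23.1 CPM in normal Veh, 16.57 and 17.5 in normal CC, 51.74 and 55.58 in steatotic Veh, and 22.89 and 20.99 in steatotic CC. *H2-DMb1* (ENSMUSG00000079547.4), a β chain gene of H2-DM, had 46.61 and 37.99 CPM in normal Veh, 32.33 and 37.19 in normal CC, 70.24 and 70.02 in steatotic Veh, and 34.06 and 40.9 in steatotic CC. With CC, the steatotic libraries of both H2-DM genes were within the range of normal Veh or below it. *Cd74* (ENSMUSG00000024610.15) had 730.1 and 567.1 CPM in normal Veh, 660.4 and 671.1 in normal CC, 1207 and 1557 in steatotic Veh, and 820.1 and 829.6 in steatotic CC. Its steatotic libraries were above all normal libraries with either treatment. *H2-DMa* overlaps *Brd2* on the other strand by 360 exonic bases. The library kit named in the methods was directional, but it was not given whether the counting used strand. Of the 75-base windows of *H2-DMb1*, 15.8% also occur in its neighbour *H2-DMb2*, so reads there could be assigned to either gene.

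*Ciita* (ENSMUSG00000022504.10) was scarce and changed most. It had 1.09 and 1.12 CPM in normal Veh (79 and 76 counts), 0.673 and 0.648 in normal CC (42 and 38 counts), 6.50 and 8.38 in steatotic Veh (441 and 613 counts), and 1.21 and 2.07 in steatotic CC (78 and 152 counts). All 4 groups were apart. Of the steatotic CC libraries 1 was close to normal Veh and the other above it, and these groups were not tested against each other. About 4 counts stand for 1 sequenced fragment in this table, so the normal CC values rest on few fragments. *Ciita* overlaps *Dexi* on the other strand by 329 exonic bases.

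The costimulators followed another order. *Cd80* (ENSMUSG00000075122.5) was at 34.98 and 35.37 CPM in normal Veh, 44.93 and 40.6 in normal CC, 31.67 and 28.52 in steatotic Veh, and 55.52 and 54.7 in steatotic CC. *Cd86* (ENSMUSG00000022901.13) was at 69.66 and 70.78 CPM in normal Veh, 109.9 and 114.2 in normal CC, 90.26 and 91.45 in steatotic Veh, and 162.1 and 171.9 in steatotic CC. Both were highest in steatotic CC and had no overlap between any groups, and *Cd80* was lowest in steatotic Veh, where the class II genes were highest.

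**Figure D1:**
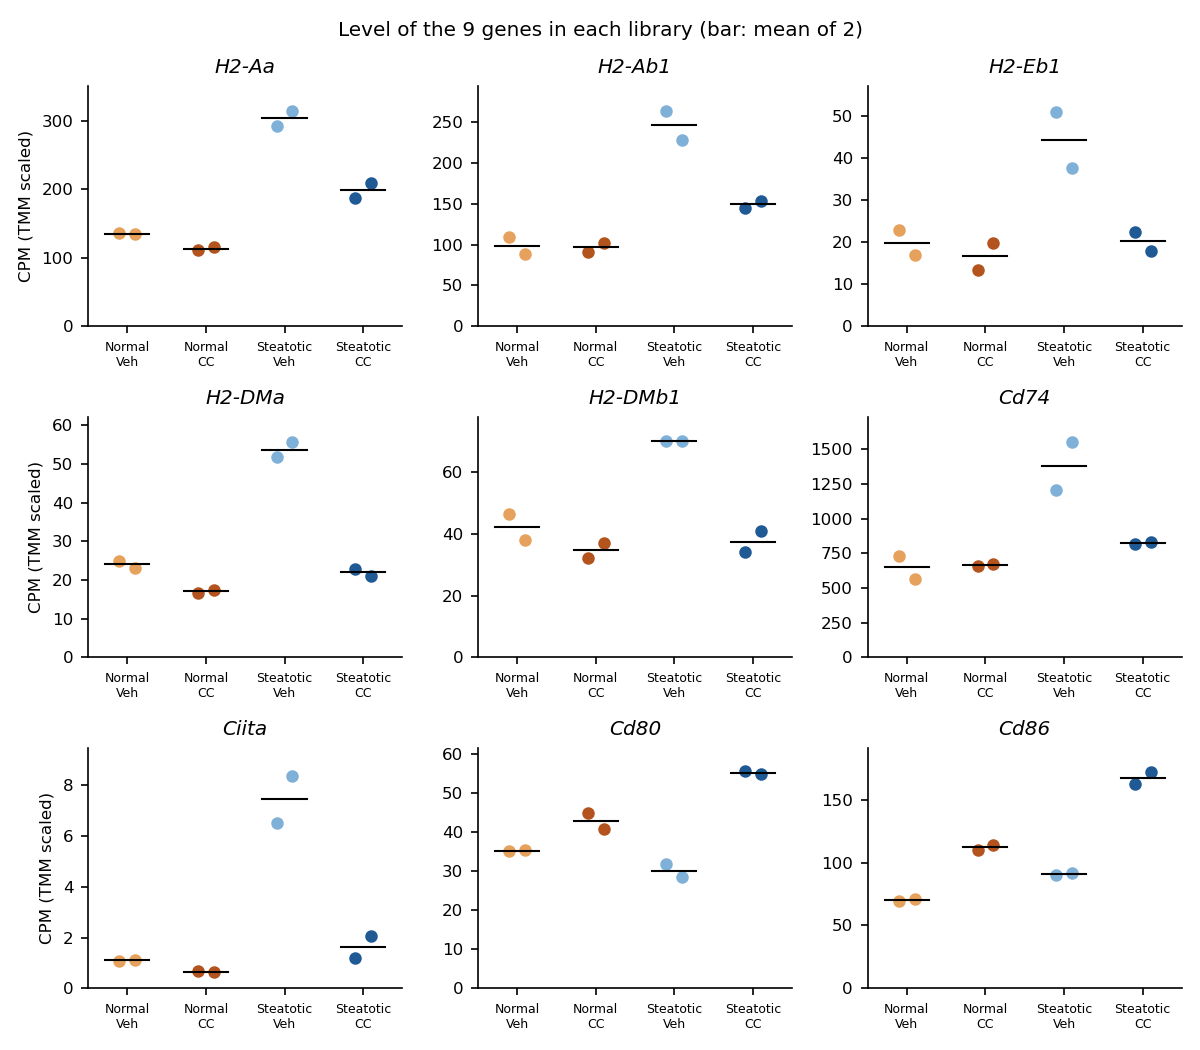
Level of each of the 9 genes in CPM (TMM-scaled, linear axes from 0) in the 4 groups; points are libraries and bars the mean of 2. The 7 class II genes peak in steatotic Veh, as for *H2-Aa* at 292.5 and 314.2 CPM, while *Cd80* and *Cd86* peak in steatotic CC.

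Per kilobase of exon, *Cd74* was the most abundant member, with 386 ± 68.6 CPM per kilobase in normal Veh and 823 ± 147 in steatotic Veh (mean ± SD, n = 2). Its level per length was 7.0 to 11.1 times that of *H2-Ab1* across the 8 libraries. *H2-Aa* and *H2-Ab1*, whose products pair, were within a ratio of 0.750 to 1.03 in every library, and *H2-Eb1* reached 0.154 to 0.278 of the level of *H2-Ab1*. *Ciita* was the least abundant, with 0.116 ± 0.00215 CPM per kilobase in normal Veh and 0.780 ± 0.139 in steatotic Veh. *Cd86* exceeded *Cd80* by 2.01 to 3.24 times per length, with the lowest ratios in normal Veh.

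Steatotic against normal livers with Veh asks how the macrophages differed after culture without CC. The class II genes were higher in the steatotic Veh libraries, and so was *Cd86*. Of the 9 members, 8 rose and 0 fell at an adjusted p under 0.05 (1 fell, *Cd80*, at an unadjusted p under 0.05, and 0 by DESeq2). The test was edgeR's quasi-likelihood test with Benjamini-Hochberg adjustment over 15202 genes, by which 16.4% of all tested genes rose and 14.3% fell. The median log2 fold change was 1.15 over the members and -0.01 over all tested genes. *H2-Aa* was 2.24-fold higher (log2 1.17 ± 0.06 SE, adjusted p = 9.85e-06), *H2-Ab1* 2.50-fold (1.32 ± 0.12, adjusted p = 0.000495) and *H2-Eb1* 2.22-fold (1.15 ± 0.28, adjusted p = 0.0268). *H2-DMa* rose 2.23-fold (1.16 ± 0.08, adjusted p = 3.78e-05), *Cd74* 2.13-fold (1.09 ± 0.16, adjusted p = 0.00631) and *H2-DMb1* 1.66-fold (0.73 ± 0.13, adjusted p = 0.00487). *Ciita* rose 6.72-fold (2.75 ± 0.29, adjusted p = 0.000282). *Cd86* rose 1.29-fold (0.37 ± 0.05, adjusted p = 0.000716). *Cd80* had a log2 fold change of -0.23 ± 0.08 (adjusted p = 0.0585). The *H2-Eb1* call was lost without replicate 2 of normal Veh (log2 0.94, adjusted p = 0.122) or replicate 1 of steatotic Veh (0.91, adjusted p = 0.111) and when genes with any count were kept (adjusted p = 0.0887). *Cd74* was lost in a fit to the 4 Veh libraries alone (adjusted p = 0.065). *Cd80* was called lower without replicate 1 of steatotic Veh (-0.30, adjusted p = 0.0469) or with scaling by library size only (-0.27, adjusted p = 0.0288).

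Several marker lists moved with this comparison. The 5 resident Kupffer cell markers summed to 2675 to 2714 CPM in normal Veh and 3922 to 3994 in steatotic Veh, where *Vsig4*, *Timd4* and *Cd5l* rose and *Clec4f* and *Marco* fell. The 5 hepatocyte markers went the other way, from 53.0 to 55.5 CPM in normal Veh to 1.63 to 2.20 in steatotic Veh, and 3 of 4 tested fell. The 8 T and NK cell markers summed to 1.19 to 1.21 CPM in normal Veh and 12.4 to 13.9 in steatotic Veh, and 7 of the 8 rose. *Ifng*, the gene of interferon γ, which induces *Ciita*, had 0 counts in both normal Veh libraries, 4 and 0 in normal CC, 12 and 41 in steatotic Veh and 20 and 41 in steatotic CC. The 5 monocyte markers summed to 28.9 to 29.5 and 82.5 to 97.8 CPM, with 4 of 5 higher, and the 5 endothelial markers to 61.2 to 65.7 and 153 to 154 CPM. Among the endothelial markers *Pecam1*, *Kdr* and *Lyve1* rose and *Stab2* fell. Among 6 tested dendritic cell markers *Xcr1* and *Clec9a* rose and *Flt3* and *Ccr7* fell. *Xcr1* went from 1.27 and 0.854 CPM to 6.72 and 6.37. *Flt3*, at 0.166 and 0.368 CPM in normal Veh (only 12 and 25 counts), was at 0 in both steatotic Veh libraries. *Cd209a* was at 0 in normal Veh and at 4 counts, about 1 fragment, in each steatotic Veh library. Of 5 tested B cell markers 0 were called in either direction by edgeR's test or DESeq2 (1 higher at an unadjusted p under 0.05). Their list had a sum of 8.22 to 9.25 CPM in normal Veh and 7.70 to 9.19 in steatotic Veh. *Ms4a1* went from 0.773 and 0.884 CPM to 1.92 and 1.52, while the means of the other tested B cell markers were lower. The part of these cells in the class II values was not tested, and in bulk RNA fewer cells of a type and less RNA per cell cannot be told apart.

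CC against Veh with the steatotic label asks how the crystals changed these cells. The class II genes fell and the costimulators rose. Of the 9 members 7 fell and 2 rose, where 10.9% of all tested genes fell and 12% rose. *Ciita* fell by 2.17 on the log2 scale (SE 0.28, adjusted p = 0.00107), 4.51-fold. *H2-DMa* fell by 1.29 (SE 0.08, adjusted p = 3.2e-05), 2.45-fold, and *H2-DMb1* fell by 0.90 (SE 0.13, adjusted p = 0.00238). *H2-Aa* fell by 0.61 (SE 0.06, adjusted p = 0.000324), 1.53-fold, and *H2-Ab1* fell by 0.72 (SE 0.12, adjusted p = 0.00818). *H2-Eb1* fell by 1.13 (SE 0.28, adjusted p = 0.0355) and *Cd74* fell by 0.74 (SE 0.16, adjusted p = 0.0296). *Cd80* rose 1.83-fold (log2 0.87 ± 0.08 SE, adjusted p = 0.000153) and *Cd86* 1.84-fold (0.88 ± 0.05, adjusted p = 1.41e-05). The lowest steatotic Veh library was above the highest steatotic CC library for each of the 7 genes that fell. These 7 were picked by their calls in that direction, and the share of all tested genes so separated was not counted. The separation thus only describes the values.

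The calls on *H2-Eb1* and *Cd74* were the least secure and held in 11 and 9 of 17 alternatives. Both were lost with a block for replicate number (adjusted p = 0.0549 and 0.0644) and when genes with any count were kept (0.114 and 0.0949), and *Cd74* in a fit to the 4 steatotic libraries alone (0.0553). Without replicate 1 of steatotic CC only 4 members fell, as *H2-Ab1* (adjusted p = 0.0664), *H2-Eb1* (0.0929) and *Cd74* (0.143) were lost. *H2-Eb1* was lost without any 1 of the 4 steatotic libraries (adjusted p from 0.0514 to 0.162), and *Cd74* without either steatotic CC library, replicate 2 of steatotic Veh (log2 -0.55, adjusted p = 0.0795) or either normal CC library (0.0638 and 0.0635). Beside the falls, the resident Kupffer cell sum was 3922 to 3994 CPM in steatotic Veh and 2598 to 3104 in steatotic CC. In that list 4 of 5 fell and *Marco* rose, and *Vsig4* fell by 2.76 on the log2 scale (adjusted p = 1.11e-06), from 574.2 and 608.2 CPM to 83.71 and 91.07. The macrophage sum was 10988 to 11151 and 9668 to 10468 CPM, with 4 of 6 lower and *Cd68* higher. The endothelial sum was 153 to 154 and 117 to 118 CPM, a difference carried by *Pecam1* (96.79 and 94.82 to 36.18 and 41.41 CPM), while *Kdr* and *Stab2* rose. The monocyte sum was 82.5 to 97.8 and 194 to 210 CPM, a difference carried by *Itgax*, the gene of CD11c (42.47 and 33.63 to 168.4 and 147.8 CPM), while *Ccr2* fell by 0.75 (adjusted p = 0.0192) and 3 of 5 were not called. The T and NK cell sum was 12.4 to 13.9 and 10.6 to 10.8 CPM, with 0 of 8 called by edgeR, DESeq2 or an unadjusted p under 0.05. The dendritic cell sum was 10.2 CPM in both steatotic Veh libraries and 8.82 to 9.89 in steatotic CC, with 0 of 6 called by edgeR, DESeq2 or an unadjusted p under 0.05. The B cell sum was 7.70 to 9.19 and 4.88 to 6.26, where *Ms4a1* fell by 1.37 on the log2 scale (adjusted p = 0.0486). Their part in the result was not tested.

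**Figure D2:**
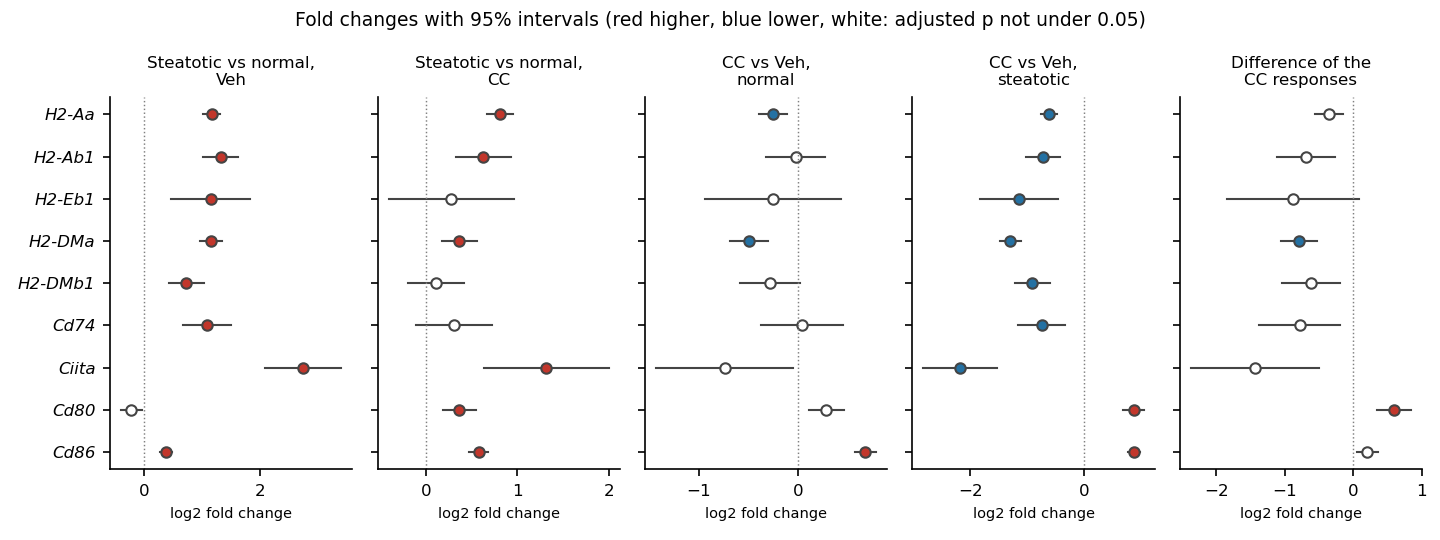
Log2 fold change of the 9 genes in the 5 comparisons with 95% confidence intervals (edgeR); each panel has its own axis, and red and blue points have an adjusted p under 0.05, higher and lower. The signs of the class II genes are opposite in the first and the fourth panel, with *Ciita* at 2.75 and -2.17.

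CC against Veh with the normal label gave fewer calls. *Cd86* rose 1.60-fold (log2 0.67 ± 0.05 SE, adjusted p = 0.00014), *H2-DMa* fell by 0.50 (SE 0.08, adjusted p = 0.00759), 1.41-fold, and *H2-Aa* fell by 0.26 (SE 0.06, adjusted p = 0.0361), 1.19-fold. Thus 1 member rose and 2 fell, where 6.27% of all tested genes rose and 5.54% fell (953 and 842 genes, or 809 and 1110 with scaling by library size only). *Ciita* had a log2 fold change of -0.74 ± 0.30 (adjusted p = 0.17, 95% interval -1.43 to -0.05) with no overlap of its libraries, and *H2-DMb1* one of -0.28 ± 0.13 (adjusted p = 0.226). *H2-Ab1* was at -0.03 ± 0.12 (interval -0.33 to 0.27), *Cd74* at 0.04 ± 0.16 (interval -0.38 to 0.45) and *H2-Eb1* at -0.26 ± 0.27 (interval -0.94 to 0.43). *Cd80* was at 0.28 ± 0.08 (adjusted p = 0.0534) and was called higher by DESeq2 (adjusted p = 0.0351). The *H2-Aa* call was lost without any 1 of the 4 normal libraries (adjusted p from 0.102 to 0.168) or without replicate 1 of steatotic Veh (0.0515). That of *H2-DMa* was lost without replicate 1 of normal CC (0.0531) or replicate 1 of normal Veh (0.0503). The macrophage sum was 14799 to 15222 CPM with Veh and 12145 to 12316 with CC, where 5 of 6 markers fell (*Adgre1*, *Csf1r*, *Lyz2*, *Fcgr1* and *Mertk*). The resident Kupffer cell sum was 2675 to 2714 CPM with Veh and 2147 to 2363 with CC, with *Clec4f*, *Vsig4* and *Timd4* lower. The monocyte sum was 28.9 to 29.5 and 35.9 to 36.5 CPM, where *Itgax* rose from 21.16 and 21.82 CPM to 29.02 and 30.22 (log2 0.46, adjusted p = 0.0447), less than with the steatotic label (difference 1.59, adjusted p = 0.00497). The T and NK cell sum was 1.19 to 1.21 CPM with Veh and 0.716 to 0.913 with CC, where 1 of 8, *Ncr1*, fell from 13 and 5 counts to 0 in both CC libraries. These counts are about 3 fragments or fewer, so this call rests on values at the floor. The B cell marker sum was 8.22 to 9.25 CPM with Veh and 8.54 to 8.95 with CC. The dendritic cell sum was 5.54 to 5.72 and 10.3 to 10.8 CPM, where *Ccr7* went from 1.53 and 1.89 CPM to 5.85 and 4.71. Of 6 tested dendritic cell markers 0 were called by edgeR, while 1 was higher by DESeq2 and 2 at an unadjusted p under 0.05.

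The difference between the CC responses, steatotic minus normal, was tested as an interaction. *H2-DMa* fell more in steatotic macrophages (difference -0.79 ± 0.11 SE, adjusted p = 0.012) and *Cd80* rose more (0.59 ± 0.11, adjusted p = 0.0294). No other member was called, so that 1 fell more and 1 rose more, where 1.27% and 1.95% of all tested genes did. The remaining class II genes had differences of -0.36 for *H2-Aa* (adjusted p = 0.0856), -0.69 for *H2-Ab1* (0.119), -0.88 for *H2-Eb1* (0.396), -0.62 for *H2-DMb1* (0.157), -0.78 for *Cd74* (0.211) and -1.43 for *Ciita* (0.129). Their unadjusted 95% intervals lay below 0 with the exception of *H2-Eb1* (-1.84 to 0.09). *Cd86* had a difference of 0.20 (adjusted p = 0.192). With DESeq2 5 members fell more, with *H2-Aa* (adjusted p = 0.0356), *H2-Ab1* (0.0016), *H2-DMb1* (0.0296) and *Cd74* (0.000884) beside *H2-DMa*. DESeq2 also called more of all tested genes here, 309 lower and 425 higher, against 193 and 297 by edgeR. The *H2-DMa* call was lost without replicate 2 of steatotic Veh (-0.74, adjusted p = 0.0522). *Cd80* was lost without replicate 2 of normal CC, without either normal Veh library, without either steatotic CC library and without replicate 2 of steatotic Veh (adjusted p from 0.0712 to 0.0908).

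**Figure D3:**
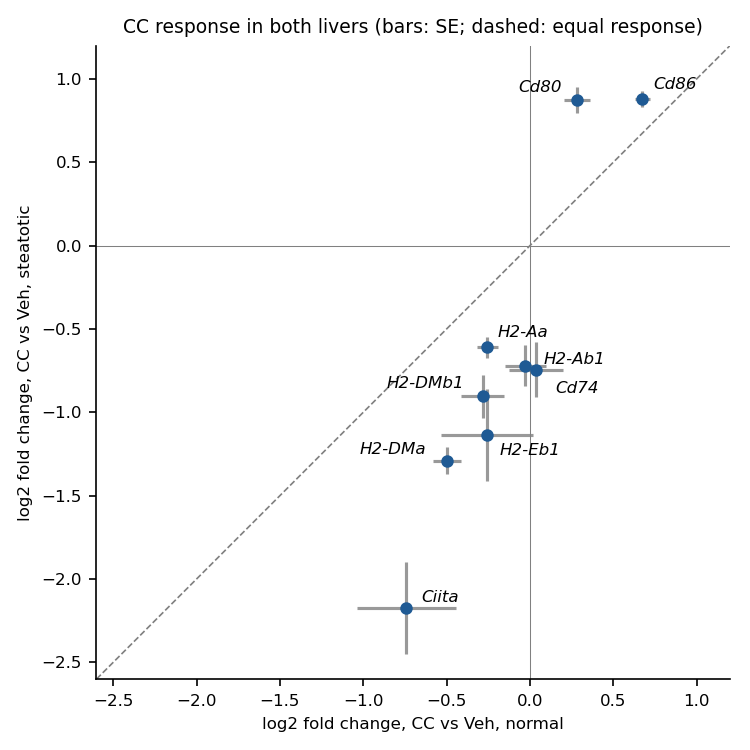
Log2 fold change with CC against Veh in normal (horizontal) and steatotic (vertical) macrophages for each gene, with SE bars; the dashed line marks equal responses. The 7 class II genes lie below the line, with called differences for *H2-DMa* (-0.79) and, above the line, for *Cd80* (0.59).

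With CC in both, the steatotic libraries were higher for 6 of 9 members and lower for 0 (also 0 by DESeq2 and at an unadjusted p under 0.05), where 15.9% of all tested genes were higher and 12.9% lower. *Ciita* was 2.49-fold higher (log2 1.32 ± 0.29 SE, adjusted p = 0.0127), *H2-Aa* 1.75-fold (0.81 ± 0.06, adjusted p = 6.72e-05), *H2-Ab1* 1.55-fold (0.63 ± 0.12, adjusted p = 0.0119) and *H2-DMa* 1.29-fold (0.37 ± 0.08, adjusted p = 0.013). *Cd86* was 1.49-fold higher (0.58 ± 0.05, adjusted p = 8.94e-05) and *Cd80* 1.29-fold (0.37 ± 0.08, adjusted p = 0.00914). The first 5 of these were also higher with Veh, whereas *Cd80* had a log2 fold change of -0.23 there. *H2-Eb1* was at 0.28 ± 0.27 (adjusted p = 0.526), *H2-DMb1* at 0.11 ± 0.13 (adjusted p = 0.589) and *Cd74* at 0.31 ± 0.16 (adjusted p = 0.235). Without replicate 1 of normal CC only 3 were called, as *H2-Ab1* (adjusted p = 0.0678), *H2-DMa* (0.0724) and *Ciita* (0.0584) were lost. *Ciita* was also lost without replicate 2 of normal CC (0.0631) or of steatotic CC (log2 0.87, 0.0567), *H2-Ab1* without the latter (0.0717), *H2-DMa* without replicate 1 of steatotic CC (0.0697) and *Cd80* without replicate 2 of normal CC (0.0599). Marker lists moved here too. The T and NK cell sum was 0.716 to 0.913 CPM in normal CC and 10.6 to 10.8 in steatotic CC, with 7 of 8 higher. The monocyte sum was 35.9 to 36.5 and 194 to 210 CPM with 4 of 5 higher, and the endothelial sum 67.7 to 68.8 and 117 to 118 CPM with 3 of 4 tested higher. The hepatocyte sum was 47.0 to 54.4 and 2.35 to 2.44 CPM with 3 of 4 tested lower. The Kupffer cell sum was 2147 to 2363 and 2598 to 3104 CPM with 3 higher and 2 lower, and among 6 macrophage markers 3 were higher and 2 lower. The dendritic cell sum was 10.3 to 10.8 and 8.82 to 9.89 CPM, with *Xcr1* higher (log2 2.36, adjusted p = 0.000248) and *Flt3* and *Ccr7* lower among 6 tested. The B cell sum was 8.54 to 8.95 and 4.88 to 6.26 CPM, with *Igkc* lower (log2 -1.01, adjusted p = 0.0467) among 5 tested. Their part in these differences was not tested.

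Other genes of the pathway were counted by lists. None of 7 factors that bind class II promoters (*Rfx5*, *Rfxap*, *Rfxank*, *Nfya*, *Nfyb*, *Nfyc* and *Creb1*) was called in any of the 5 comparisons by edgeR's test or DESeq2. At an unadjusted p under 0.05 there was 1 lower in steatotic Veh and 1 higher with CC in normal cells. The list had medians of log2 fold changes of 0.00 for steatotic against normal with Veh and 0.09 for CC with the steatotic label. Of 10 genes that act upstream of *Ciita*, 4 rose and 2 fell in steatotic Veh against normal Veh. *Jak2*, a kinase of the interferon γ receptor, rose by 0.63 (adjusted p = 8.68e-05), while *Irf4* fell by 0.76 (adjusted p = 0.0297). With CC in steatotic macrophages 2 of the 10 rose and 2 fell. *Jak2* rose by 0.55 (adjusted p = 0.000227) and *Jak1* by 0.39 (adjusted p = 0.000337), and *Ifngr1*, a receptor chain for interferon γ, fell by 0.48 (adjusted p = 0.0149). The fourth, *Spi1*, the gene of the myeloid factor PU.1, is named because it completes this count, although its values had been seen, and fell by 0.20 (adjusted p = 0.00356), after a rise of 0.37 in steatotic Veh against normal Veh (adjusted p = 0.000122). The CC response of *Jak2* was larger in steatotic cells (difference 0.41, adjusted p = 0.0276).

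A list of 8 genes for processing of the invariant chain and antigens holds 6 proteases, the thiol reductase gene *Ifi30* and *Cst3*, the gene of cystatin C, which inhibits cysteine cathepsins. Of the 8, 5 rose and 2 fell in steatotic Veh against normal Veh. *Ctsl*, a lysosomal cysteine protease, rose by 1.15 on the log2 scale (adjusted p = 4.2e-06) and *Lgmn*, an asparaginyl endopeptidase, by 0.57 (adjusted p = 6.69e-06). With CC, 6 of the 8 fell in steatotic macrophages and 4 in normal ones, and 0 rose in either by edgeR, DESeq2 or an unadjusted p under 0.05. *Lgmn* fell from 4246 and 4278 CPM to 2557 and 2535 in steatotic cells (log2 -0.74, adjusted p = 3.21e-06) and from 2908 and 2816 to 2178 and 2184 in normal cells (-0.39, adjusted p = 0.000165). *Cst3*, named after its values were seen, is counted in each of these directions, as it rose by 0.26 (adjusted p = 0.00362) in steatotic Veh and fell with CC by 0.19 (adjusted p = 0.0177) in steatotic and by 0.20 (adjusted p = 0.0249) in normal cells. *Lgmn* was the only gene of this list whose responses were called different (-0.35, adjusted p = 0.00552). *Ctss*, the protease that makes the last cuts of the invariant chain in many antigen-presenting cells, fell by 0.38 (adjusted p = 0.000263) in steatotic and by 0.28 (adjusted p = 0.00286) in normal cells with CC. *Ctsl* was at 0.08 in both (adjusted p = 0.296 and 0.365).

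Of 3 genes for turnover of class II at the surface, *Marchf1*, a ubiquitin ligase that removes class II and CD86, rose by 1.16 (adjusted p = 2.56e-05) in steatotic Veh against normal Veh. *Cd83*, which opposes this ligase, fell by 0.79 (adjusted p = 0.00141). With CC *Marchf1* fell by 0.27 (adjusted p = 0.0342) and *Cd83* rose by 0.68 (adjusted p = 0.00371) in steatotic cells, and by like amounts in normal cells (-0.30, adjusted p = 0.0416, and 0.65, adjusted p = 0.00876). The differences of these responses were 0.03 for each, and neither was called (adjusted p = 0.952 and 0.965).

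Of 9 tested ligands with costimulatory or coinhibitory roles beside CD80 and CD86, 5 rose and 1 fell in steatotic Veh against normal Veh, and 4 rose and 1 fell with CC in steatotic cells. *Cd274*, the gene of PD-L1, was at 228 and 237.2 CPM in normal Veh, 392 and 395.1 in normal CC, 431.6 and 418.7 in steatotic Veh, and 911.3 and 827.8 in steatotic CC. It thus rose with CC in steatotic (log2 1.03, adjusted p = 9.95e-06) and normal cells (0.76, adjusted p = 0.000123), in the direction of *Cd80* and *Cd86*. *Icosl*, the ligand of ICOS, fell with CC by 1.62 (adjusted p = 0.00456) in steatotic and by 1.32 (adjusted p = 0.022) in normal cells. *Tnfsf4*, the gene of OX40L, was at 12 and 8 counts in normal Veh, 52 and 43 in normal CC, 460 and 368 in steatotic Veh, and 328 and 289 in steatotic CC. The normal Veh counts are at or below 3 fragments, so no fold is given for it, and the difference of its CC responses had an adjusted p of 0.0101.

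Of 11 genes of class I presentation, 6 rose and 0 fell in steatotic Veh against normal Veh (8 and 0 by DESeq2, 9 and 0 at an unadjusted p under 0.05). *Nlrc5*, the class I counterpart of *Ciita*, rose by 0.74 (adjusted p = 3.8e-05) and *Psmb9*, an immunoproteasome subunit, also by 0.74 (adjusted p = 4.72e-05). With CC, 0 of the 11 were called in steatotic or in normal cells by edgeR's test or DESeq2, and 1 in each at an unadjusted p under 0.05. *Nlrc5* had log2 fold changes with CC of 0.06 (adjusted p = 0.466) and 0.07 (adjusted p = 0.481). Among other class II chains *H2-DMb2* was at 3.23 and 3.42 CPM in steatotic Veh and 1.41 and 1.40 in normal Veh and was not called in any comparison by edgeR (higher in steatotic CC against normal CC by DESeq2), and *H2-Oa*, *H2-Ob* and *H2-Eb2* were below the filter.

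**Figure D4:**
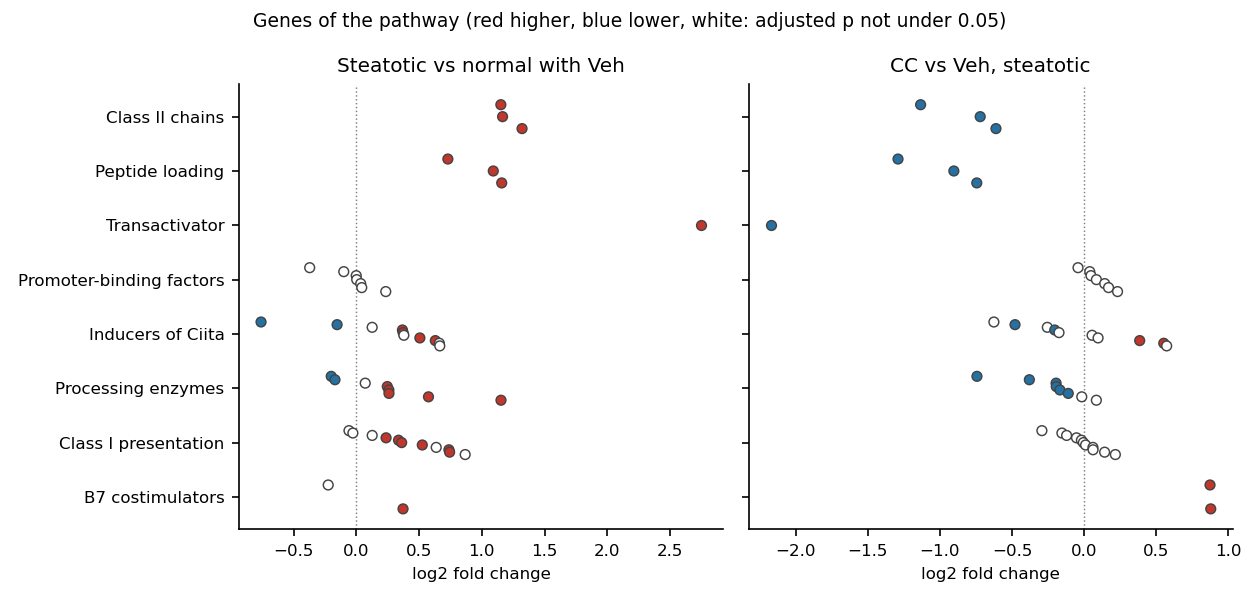
Log2 fold change of each tested gene of 8 lists for steatotic against normal with Veh (left) and for CC against Veh in steatotic macrophages (right); red and blue mark an adjusted p under 0.05, higher and lower, and white none. Class II chains, loading genes and *Ciita* sit to the right in the left panel and to the left in the right panel (*Ciita* at 2.75 and -2.17), whereas none of the 11 class I genes is called on the right.

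Over the 8 libraries the 15 pairs among the 6 class II chain and loading genes correlated in log2 CPM with Pearson's r of 0.82 to 0.97, and *Ciita* correlated with the 6 at 0.86 to 0.96. *Cd80* and *Cd86* correlated with each other at 0.84 and with the other 7 genes at -0.76 to 0.14. The 8 points are 4 groups of 2 that share culture and library steps, so these values mostly repeat the group levels and carry no test. Among 945 other genes with a mean log2 CPM above 3 and an SD above 0.5, the 5 most like the mean of the 6 class II genes over the 8 libraries were *Manba* (r = 0.98), *Pecam1* (0.98), *Sfxn5* (0.98), *Etv5* (0.98) and *Ap1s2* (0.97). *Pecam1* went from 25.4 CPM in normal Veh to 95.8 in steatotic Veh and 38.8 in steatotic CC, and is also among the endothelial markers above. Most like *Ciita* were *Tmem8* (0.99), *Lbh* (0.99), *Manba* (0.98), *Sfxn5* (0.98) and *Hgf* (0.98). *Cd80* was most like *Clec4e*, *Lhfpl2*, *Anpep*, *C77080* and *Ptges* (0.98 to 0.99), and *Cd86* most like *Mmp13*, *Car2*, *Mxd1*, *Slc7a2* and *Tes* (0.99 each). *Clec4e*, a receptor of the innate immune system, went from 38.3 CPM in normal Veh to 79.1 in normal CC and from 25.1 to 177 with the steatotic label, and *Mmp13*, a collagenase, from 315 to 765 and from 464 to 1617.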

How the data were processed

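Poly(A) RNA of F4/80-selected hepatic macrophages was sequenced in 8 libraries, 2 in each of 4 groups taken from the labels. Per the submitters' processing notes and methods, the authors used fastp for trimming, HISAT2 for alignment (build mm10) and StringTie for quantification, with versions not given in the sources used here. They deposited 1 table of estimated counts (expected counts) per gene, whole numbers with no normalization and no pooling, so no rounding was needed. Of the smallest values (1 to 20), 35.0 to 36.5% were multiples of 4, against 24.0 to 27.0% of larger values, from which 1 fragment was inferred to give about 4 counts. Total counts were 58668655 to 74529462, and the floor of 3 fragments, about 12 counts, corresponds to 0.161 to 0.2045 CPM, which takes in no more than counting error.

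The test was run on 15202 of the 28711 genes with any count, those that reached 0.5 CPM in 1 or more libraries. Levels are CPM scaled by TMM (factors 0.981 to 1.03). edgeR 4.0.16 in R 4.3.3 was used with glmQLFit (robust) and glmQLFTest in 1 model of 4 group means over all 8 libraries, as the methods name no test for these data, with Benjamini-Hochberg adjustment over all tested genes and a threshold of 0.05 in each of 5 contrasts. SE is the log2 fold change divided by the square root of F. Exon lengths and positions are from GENCODE M21 (GRCm38), and promoters from RefSeq (GRCm38.p6).

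All 9 members were named, and of each other list up to 3 genes per comparison that passed the threshold with large changes, as well as marker genes; 1 listed gene is not reported here by name. Likeness was Pearson's r of log2 CPM (prior count 4). The members and lists were chosen with earlier results of these data known. Alternatives were DESeq2 1.42.0, edgeR with DESeq2's size factors or with library sizes alone, no filter beyond any count, at least 1 CPM in 2 libraries, a prior count of 4, a block for replicate number, fits to the 4 libraries compared, counts divided by 4 and each library left out. The test was tried on simulated data with known changes. No effect shared by libraries of the same replicate number was seen (r of replicate differences between groups -0.00485 to 0.0629), and the main model did not pair them. This cannot tell whether such libraries came from the same cell preparation. Figures were drawn with matplotlib 3.10.9.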

Additional observations from a re-analysis of the deposited data

Results flagged for a closer look

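The response to CC differed between steatotic and normal macrophages for 2 members by the interaction test of edgeR. *H2-DMa* had a difference of -0.79 on the log2 scale, as it fell by 1.29 in steatotic and by 0.50 in normal cells (adjusted p = 0.012). *Cd80* had a difference of 0.59, from log2 fold changes of 0.87 and 0.28 (adjusted p = 0.0294). Over the alternatives run the differences kept their direction, *H2-DMa* between -0.86 and -0.73 and *Cd80* between 0.52 and 0.67. The *H2-DMa* call held in 15 of 16 alternatives (adjusted p up to 0.0522) and the *Cd80* call in 10 of 16 (up to 0.0908), all losses being fits with 1 library left out.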

How the results depend on the processing

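Among values of single genes under the alternatives, 695 kept direction and side of the threshold, 42 lost a call, 15 gained one and 4 changed sign. Scaling by library size only gave 1 lower member in steatotic Veh against normal Veh. In normal cells with CC, DESeq2, the filter of at least 1 CPM in 2 libraries and counts divided by 4 each gave 2 higher members. For the difference between the responses DESeq2 gave 5 lower members and keeping genes with any count 2. Of all tested genes, 309 were lower there by DESeq2 and 193 in the main fit. Keeping genes with any count cost 3 calls, *H2-Eb1* in steatotic Veh against normal Veh (adjusted p = 0.0887) and *H2-Eb1* (0.114) and *Cd74* (0.0949) with CC in steatotic cells. Fits to the 4 libraries compared cost 3, *Cd74* in steatotic Veh against normal Veh (0.065) and with CC in steatotic cells (0.0553) and *Ciita* in steatotic CC against normal CC (0.0543), where *Cd74* gained one (0.00257). The replicate block cost the calls on *H2-Eb1* (-1.13, adjusted p = 0.0549) and *Cd74* (-0.74, adjusted p = 0.0644) with CC in steatotic cells, leaving 5 lower members, and changed no other call of a member. With each library left out, members lower ranged from 0 to 1 in steatotic Veh against normal Veh, from 4 to 7 with CC in steatotic cells, from 0 to 2 with CC in normal cells and from 0 to 3 for the difference. Members higher ranged from 3 to 6 in steatotic CC against normal CC, from 1 to 2 with CC in normal cells and from 0 to 1 for the difference. Signs changed for *H2-DMb1* in steatotic CC against normal CC (-0.029 without replicate 2 of steatotic CC, up to 0.24 without replicate 1) and, with CC in normal cells, for *H2-Ab1* (0.05 without replicate 1 of normal CC, 0.14 without replicate 1 of normal Veh, down to -0.17 without its replicate 2) and *Cd74* (-0.13 without replicate 2 of normal Veh, up to 0.24 without its replicate 1). None of these was called. These fits assume that the lone library of a group varies like the other groups. The causes were not tested. Counts of *Ciita* were 38 and 42 in normal CC and 78 and 152 in steatotic CC.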
